A study of Mus musculus with 8 samples.

Results

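The 39 genes described here encode enzymes of glycolysis, the pentose phosphate pathway and the tricarboxylic acid (TCA) cycle, kinases that regulate them, and the transcription factor HIF-1α. They were chosen by symbol from a named list, and all 39 were found among the 24594 genes of the count table through their Entrez Gene IDs. RNA had been sequenced from 2 luminal fractions of the mammary gland of wild type C57BL/6J mice that had received no treatment. Luminal progenitors (LP, the c-Kit high fraction) and mature luminal cells (the c-Kit low fraction, labelled luminal differentiated) were represented by 4 libraries each. The general methods of the study give an age of 12 to 20 weeks for experimental mice. Both fractions were taken from enzymatically dissociated glands by cell sorting after staining against blood, endothelial and immune cells. The labels name EpCAM, CD49f, c-Kit and CD14 as the sorted surface markers, while the study's text names c-Kit for these libraries, so Kit transcripts are no independent check of the fractions and those of Cd14 may not be one.

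Glycolysis splits glucose into pyruvate in the cytosol, where hexokinase traps the sugar, phosphofructokinase commits it to breakdown, and the lower enzymes recover ATP and NADH. Pyruvate is either reduced to lactate or oxidised by pyruvate dehydrogenase to feed the TCA cycle in mitochondria, and the pentose phosphate pathway branches off at glucose 6-phosphate to supply NADPH and ribose. HIF-1α is stabilised when oxygen is low and is known to activate many glycolytic genes, and secretory mammary cells draw on the same routes for lactose, fat and reducing power.

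The LP libraries held 5510863 to 7089597 counts on genes and the mature libraries 4410049 to 7791593. Levels are given as CPM, the counts of a gene per 1000000 counts of its library, with library sizes adjusted by TMM, and a positive log2 fold change means a higher level in LP. The labels number the libraries but do not say that each came from another mouse, so the p-values measure the spread between these libraries, which may be partly technical. The summed markers of each label were higher in its fraction. Luminal progenitor markers (Kit, Elf5, Cd14 and Aldh1a3) summed to 13574 to 20039.9 CPM in LP and 244 to 966 CPM in mature libraries, most of it Cd14 in LP. Mature luminal markers (Pgr, Esr1, Prlr, Areg and Cited1) summed to 306 to 985 CPM in LP and 4325 to 6059 CPM in mature libraries, most of it Prlr. Esr1 and Areg overlapped between the fractions, and the other markers of both lists did not. Aldh1a3 was not called at an adjusted p-value under 0.05. Elf5, a progenitor factor that was not used to sort, ranged from 191 to 249 CPM in LP and from 25.7 to 112 CPM in mature libraries. Summed markers of other cell types reached at most 49.4 CPM for basal cells, 4.37 for adipocytes, 8.48 for endothelial cells, 52.7 for immune cells and 84.2 for red cells in any library. Fibroblast markers summed to 7.35 to 41.7 CPM in LP, 138 and 179 CPM in mature replicates 1 and 2, and 28.3 and 27.0 CPM in mature replicates 3 and 4, with Dcn alone at 132 and 154 CPM in mature replicates 1 and 2, while Col1a1 was at most 1.74 CPM in any library.

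In the test across 12816 genes, 38 of the 39 members were included and 18 were called at an adjusted p-value under 0.05, with LP ahead for 9 and mature cells ahead for 9. Among all tested genes 24.7% were called, 10.9% with LP ahead and 13.8% with mature cells ahead. Scaling by library totals alone turned the split of all called genes from 1394 with LP ahead and 1767 with mature cells ahead to 2031 and 1281, and the members then divided into 11 and 9. The median log2 fold change was -0.07 over the tested members and 0.00 over all tested genes. The members divided by pathway. Of the 17 tested members of upper and lower glycolysis, 8 were called higher in mature cells and 1 higher in LP, with a median log2 fold change of -0.95. All 4 pentose phosphate members were called higher in LP, with a median of 1.17. Of the 9 TCA cycle members and related dehydrogenases, 2 were called higher in LP and 7 were not called, with a median of 0.25. Of the 7 members of the lactate and pyruvate branch, 2 were called higher in LP, and Hif1a was called higher in mature cells. The counts of 2 of 9 in the TCA cycle and 2 of 7 in the lactate and pyruvate branch were not far from the 24.7% of all genes. Libraries of the fractions did not overlap for 10 members with LP above, against 14.0% of all tested genes, and for 9 members with mature cells above, against 15.5%. In sorted bulk RNA, a gene with a lower level in every cell and one expressed by fewer of the cells cannot be told apart.

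**Figure D1:**
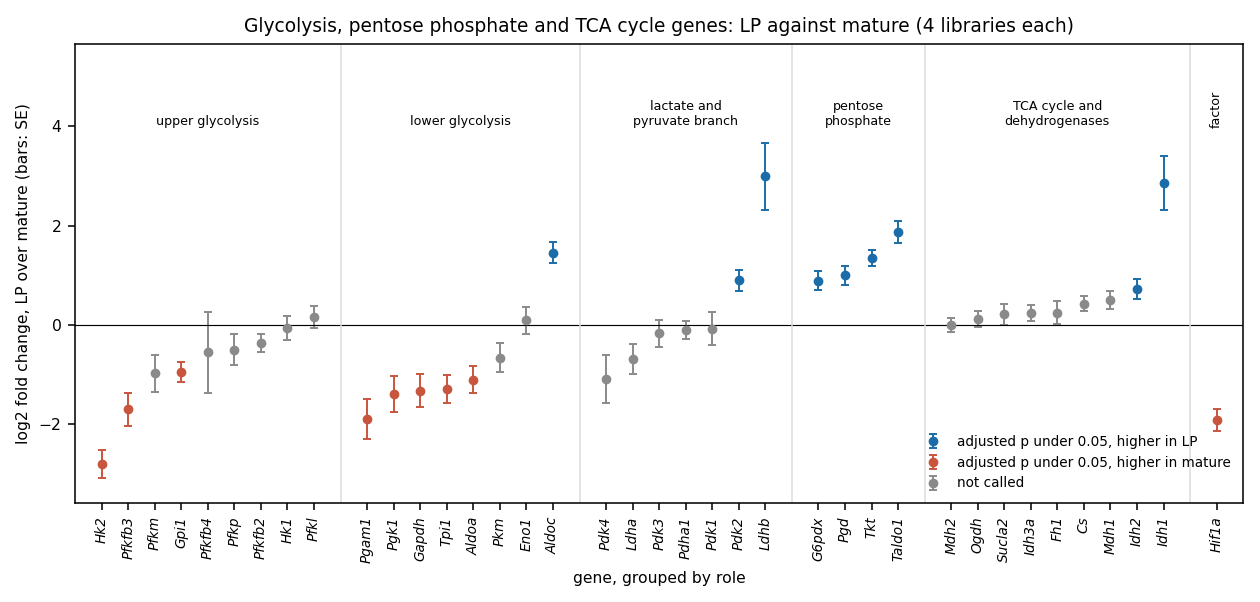
The vertical axis gives the log2 fold change of LP over mature cells for the 38 tested members, with bars of 1 standard error, and the horizontal axis lists the genes by role. Hk2 at -2.79 and Ldhb at 2.99 mark the ends of the range, and all 4 pentose phosphate genes lie above zero.

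The promoters of the members with the largest called fold changes in each direction are printed to show the sequence around the start of each gene, for Hk2, Hif1a and Pgam1 (higher in mature cells) and for Ldhb, Idh1 and Taldo1 (higher in LP). This choice of 6 was made after the values had been seen. Each window holds 250 bases before and 50 bases after the start of the gene in RefSeq, on build GRCm38.p6. It is written from 5′ to 3′ along the gene. Where a gene had several windows the most 5′ was taken, and which start these cells use was not tested. Capitals mark the core of the hypoxia response element, ACGTG or GCGTG, on either strand, so that it can also read CACGT or CACGC, and overlapping copies run together as in CACGTG. The windows are chr6:82774405-82774704 on the minus strand for Hk2, chr12:73907617-73907916 on the plus strand for Hif1a, chr19:41911621-41911920 on the plus strand for Pgam1, chr6:142507908-142508207 on the minus strand for Ldhb, chr1:65186430-65186729 on the minus strand for Idh1 and chr7:141391910-141392209 on the plus strand for Taldo1.
Hk2: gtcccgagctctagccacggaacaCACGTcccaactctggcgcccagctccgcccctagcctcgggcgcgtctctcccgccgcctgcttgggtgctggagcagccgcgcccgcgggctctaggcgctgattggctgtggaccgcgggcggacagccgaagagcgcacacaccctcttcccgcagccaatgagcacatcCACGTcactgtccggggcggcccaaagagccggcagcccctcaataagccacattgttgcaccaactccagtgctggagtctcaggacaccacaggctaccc
Hif1a: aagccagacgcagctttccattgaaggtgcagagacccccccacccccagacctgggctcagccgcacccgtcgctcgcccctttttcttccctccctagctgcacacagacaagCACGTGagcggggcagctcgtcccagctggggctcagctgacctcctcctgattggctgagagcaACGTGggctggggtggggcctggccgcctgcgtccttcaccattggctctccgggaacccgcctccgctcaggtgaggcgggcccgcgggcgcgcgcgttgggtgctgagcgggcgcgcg
Pgam1: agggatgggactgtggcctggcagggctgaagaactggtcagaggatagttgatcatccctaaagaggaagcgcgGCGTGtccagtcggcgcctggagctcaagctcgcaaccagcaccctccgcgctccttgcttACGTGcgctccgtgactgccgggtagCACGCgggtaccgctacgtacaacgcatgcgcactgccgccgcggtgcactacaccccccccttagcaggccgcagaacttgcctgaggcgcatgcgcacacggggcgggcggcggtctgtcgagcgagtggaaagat
Ldhb: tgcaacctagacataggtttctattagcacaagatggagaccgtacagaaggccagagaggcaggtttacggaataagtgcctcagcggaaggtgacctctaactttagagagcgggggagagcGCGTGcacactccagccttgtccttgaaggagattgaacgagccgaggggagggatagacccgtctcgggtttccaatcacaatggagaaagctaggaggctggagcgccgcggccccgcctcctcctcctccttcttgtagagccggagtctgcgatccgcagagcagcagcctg
Idh1: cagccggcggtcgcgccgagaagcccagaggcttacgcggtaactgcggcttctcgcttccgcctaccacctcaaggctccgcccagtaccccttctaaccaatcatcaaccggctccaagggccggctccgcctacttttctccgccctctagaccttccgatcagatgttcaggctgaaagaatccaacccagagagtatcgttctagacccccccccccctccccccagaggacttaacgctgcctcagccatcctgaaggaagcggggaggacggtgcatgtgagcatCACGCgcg
Taldo1: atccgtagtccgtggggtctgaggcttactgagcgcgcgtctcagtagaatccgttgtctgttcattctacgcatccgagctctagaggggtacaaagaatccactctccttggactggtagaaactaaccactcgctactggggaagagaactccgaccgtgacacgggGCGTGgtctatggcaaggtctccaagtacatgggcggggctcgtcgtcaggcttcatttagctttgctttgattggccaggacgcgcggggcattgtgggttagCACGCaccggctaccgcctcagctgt
The core occurred in the windows of 9 of the 9 members called higher in LP and 6 of the 9 called higher in mature cells, against 63.4% of the 10164 tested genes with a window and 43.8% of all 27025 windows. The E-box CACGTG, which overlaps the hypoxia core, was found in 1 of 9 members in each direction, against 10.3% of tested genes. The core of the antioxidant response element, TGACNNNGC, was in 1 of 9 members called higher in LP (G6pdx) and in 0 of 9 called higher in mature cells, against 14.7% of tested genes. These are matches of letters and do not show that a factor binds there.

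In upper glycolysis Hk2, Gpi1 and Pfkfb3 were called higher in mature cells, while Hk1 and the phosphofructokinase genes were not called. These were 3 of 9 members, against 24.7% of all tested genes called in either direction. The median log2 fold change of the group was -0.55. Hk2 (Entrez Gene 15277, chromosome 6), the insulin- and hypoxia-responsive hexokinase, stood at 29.3, 20.6, 19.8 and 16.9 CPM in LP replicates 1 to 4 and at 213, 173, 95.0 and 119 CPM in mature replicates 1 to 4. Every mature library lay above every LP library, and the log2 fold change was -2.79 ± 0.28 (SE, adjusted p = 0.000269). Its sister Hk1, the hexokinase of most tissues, had 106, 97.5, 163 and 128 CPM in LP and 153, 170.2, 109 and 85.9 CPM in mature libraries. The fractions overlapped for Hk1 (log2 fold change -0.06 ± 0.24, adjusted p = 0.882), whose sign also turned when library totals alone were used for scaling.

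Gpi1 (Entrez Gene 14751, chromosome 7), the isomerase that makes fructose 6-phosphate, had 104, 95.3, 140.1 and 114 CPM in LP and 236, 279.7, 189 and 170.4 CPM in mature libraries. All mature libraries were higher, with a log2 fold change of -0.95 ± 0.20 (adjusted p = 0.00625). Pfkfb3 (Entrez Gene 170768, chromosome 2) encodes a bifunctional enzyme that makes fructose 2,6-bisphosphate, the strongest activator of phosphofructokinase. It rose from 95.1, 65.7, 153 and 158 CPM in LP to 439, 464, 195 and 434 CPM in mature libraries, with a log2 fold change of -1.70 ± 0.34 (adjusted p = 0.00493). Mature replicate 3 was the lowest of its fraction and still above the highest LP library.

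The related regulators were not called. Pfkfb2 had 74.5, 82.7, 108 and 72.7 CPM in LP and 132, 93.8, 91.7 and 118 CPM in mature libraries (adjusted p = 0.183), and the ranges overlapped. Pfkfb4 was scarce, with 2.90, 2.44, 0.166 and 6.52 CPM in LP and 8.02, 1.84, 3.46 and 4.22 CPM in mature libraries (log2 fold change -0.55, adjusted p = 0.668), and its log2 fold change was -1.24 without LP replicate 4. Among the phosphofructokinases themselves, Pfkl, the liver type, had the highest level per kilobase of transcript in the group, 90.6 CPM per kb in LP and 81.2 in mature cells. Its libraries overlapped, at 296, 312, 409.7 and 335 CPM in LP and 375, 379, 239 and 218 CPM in mature cells (log2 fold change 0.16 ± 0.22, adjusted p = 0.634). The muscle type Pfkm ranged from 6.33 to 13.1 CPM in LP and from 12.3 to 27.7 CPM in mature libraries (adjusted p = 0.0864), and the platelet type Pfkp from 79.5 to 130.3 and from 70.4 to 237 CPM (adjusted p = 0.27). Without mature replicate 4, Pfkp was called higher in mature cells (log2 fold change -0.71, adjusted p = 0.0478).

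Lower glycolysis held the most abundant transcripts and the largest number of calls. Of its 9 members 8 were tested, and 5 were called higher in mature cells and 1 higher in LP. The shares of all tested genes were 13.8% and 10.9%. The median log2 fold change of the group was -1.19. Aldoa (Entrez Gene 11674, chromosome 7), the aldolase that splits fructose 1,6-bisphosphate, had the highest level per kilobase of all 39 members, 1275 CPM per kb in LP and 2739 in mature cells. Its libraries stood at 1982, 1843, 2057 and 1823 CPM in LP and at 5300.2, 5653, 2651 and 2950.1 CPM in mature cells. The LP libraries lay close together, the mature libraries were all higher, and the log2 fold change was -1.10 ± 0.27 (adjusted p = 0.0132).

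Its sister Aldoc (Entrez Gene 11676, chromosome 11), best known from brain, went the other way. It had 364, 426, 398 and 446 CPM in LP against 112, 131, 217 and 136 CPM in mature libraries, with no overlap, and a log2 fold change of 1.46 ± 0.21 (adjusted p = 0.00112). Aldoc was the only one of the 17 tested glycolysis members called higher in LP, and none of its transcript's 51-base windows occurred in another annotated gene.

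Tpi1 (Entrez Gene 21991, chromosome 6), the triose phosphate isomerase, had 369, 355, 529 and 385 CPM in LP and 1256, 1416, 669 and 650.0 CPM in mature libraries (log2 fold change -1.28 ± 0.28, adjusted p = 0.00827). Pgam1 (Entrez Gene 18648, chromosome 19), which moves the phosphate of phosphoglycerate, had 150.3, 127, 154 and 129 CPM in LP and 705, 885, 222 and 277 CPM in mature libraries (log2 fold change -1.90 ± 0.40, adjusted p = 0.00663). For both genes the fractions were separate, and mature replicates 1 and 2 stood well above mature replicates 3 and 4. Pgk1 (Entrez Gene 18655, chromosome X), the first ATP-yielding enzyme, had 138, 121, 161 and 136 CPM in LP and 501, 574, 209 and 166 CPM in mature libraries (log2 fold change -1.38 ± 0.36, adjusted p = 0.0184). Its call was lost when LP replicate 2 (adjusted p = 0.0579), LP replicate 4 (0.0507), mature replicate 1 (0.0504) or mature replicate 2 (0.0519) was left out. Gapdh (Entrez Gene 14433, chromosome 6), which makes NADH, had 47.9, 35.1, 50.3 and 44.9 CPM in LP and 145, 171, 71.0 and 58.9 CPM in mature libraries (log2 fold change -1.32 ± 0.33, adjusted p = 0.0139). Libraries of the fractions did not overlap for either gene.

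The levels of several of these genes are uncertain, because copies elsewhere in the genome share their sequence. Of the 51-base windows of the principal transcript, 82.4% also occurred in other annotated genes for Gapdh, 71.9% for Eno1, 67.9% for Pgk1 and 41.4% for Pgam1. The share was 33.7% for Pkm, 13.3% for Aldoa and 7.19% for Tpi1. Among members of other groups it was 26.3% for Ldhb, 25.1% for Pfkfb2, 24.7% for Gpi1 and 0 for Hk2. How the authors counted reads that match several places is not given in the sources used here, so the low level of Gapdh in particular cannot be read as the level of its mRNA.

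The remaining members of lower glycolysis were not called. Pkm, the pyruvate kinase of non-liver tissues, ranged from 1806 to 2359 CPM in LP and from 1907 to 4346 CPM in mature libraries (log2 fold change -0.66 ± 0.29, adjusted p = 0.126). Eno1, the common enolase, ranged from 1145 to 1406 and from 753 to 1694 CPM (log2 fold change 0.09 ± 0.28, adjusted p = 0.838), and its sign turned when mature replicate 3 or 4 was left out. Without mature replicate 3, Pkm was called higher in mature cells (-0.81, adjusted p = 0.0391). For Pkm and Eno1 mature replicates 1 and 2 were above all LP libraries while mature replicates 3 and 4 were not. Eno2, the neuronal enolase, reached at most 1.99 CPM and did not pass the filter on low counts.

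In the lactate and pyruvate branch the lactate dehydrogenase genes differed. Ldhb (Entrez Gene 16832, chromosome 6) encodes the heart subunit, which favours the oxidation of lactate to pyruvate. It had 57.4, 74.2, 84.5 and 109 CPM in LP and 1.69, 2.63, 25.7 and 10.1 CPM in mature libraries, with an estimate on the log2 scale of 2.99 ± 0.67 (adjusted p = 0.00896). Every LP library was above every mature library. The spread within mature cells was wide, and without mature replicate 3, which had the highest Ldhb level of its fraction, the log2 fold change was 4.06. Ldha, the muscle subunit and the most abundant member of this group per kilobase (470.2 CPM per kb in LP and 754 in mature cells), had 846, 821, 899 and 755 CPM in LP and 1714, 2019, 807 and 789 CPM in mature libraries. Only mature replicates 1 and 2 lay above the LP range, and Ldha was not called (log2 fold change -0.68 ± 0.30, adjusted p = 0.13). It was called when mature replicate 3 was left out alone (-0.82, adjusted p = 0.0491) or together with mature replicate 4 (-1.12).

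Pyruvate dehydrogenase is switched off by 4 kinases. Pdk2 (Entrez Gene 18604, chromosome 11) was the one called, at 78.3, 78.2, 90.6 and 75.1 CPM in LP and 55.8, 45.2, 28.4 and 43.7 CPM in mature libraries (log2 fold change 0.90 ± 0.21, adjusted p = 0.0106). LP libraries were all higher and close to each other. Pdk1, a hypoxia-responsive kinase, had 88.3, 58.4, 118 and 66.5 CPM in LP and 89.4, 123, 99.2 and 38.1 CPM in mature libraries (adjusted p = 0.892). Pdk3 had 18.4, 26.0, 23.9 and 20.1 CPM in LP and 17.2, 23.4, 23.1 and 36.0 CPM in mature libraries (adjusted p = 0.688). Both overlapped between the fractions. Pdk4, the fasting-responsive kinase, had 22.9, 16.4, 85.7 and 51.3 CPM in LP and 64.0, 65.4, 151 and 93.3 CPM in mature libraries (log2 fold change -1.09 ± 0.48, adjusted p = 0.125). The LP libraries of Pdk4 spread widely, and without LP replicate 3 the adjusted p was 0.0308 with a log2 fold change of -1.62. Pdha1, the catalytic subunit of the dehydrogenase on chromosome X, ranged from 198 to 261 CPM in LP and from 186 to 305 CPM in mature libraries (adjusted p = 0.727).

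The 4 pentose phosphate members were all higher in LP, both in the oxidative branch that makes NADPH and in the branch that rearranges sugars. This did not extend to the rest of the pathway. Of 8 further tested genes of the pathway and of ribose phosphate metabolism, given below, 0 were called. G6pdx (Entrez Gene 14381, chromosome X), the first and rate-setting enzyme, had 111, 111, 77.0 and 124 CPM in LP and 50.6, 62.3, 46.6 and 68.3 CPM in mature libraries (log2 fold change 0.89 ± 0.20, adjusted p = 0.00801). Pgd (Entrez Gene 110208, chromosome 4), the next NADPH-yielding dehydrogenase, had 118, 98.3, 130.3 and 129.6 CPM in LP and 48.0, 68.0, 49.4 and 73.8 CPM in mature libraries (log2 fold change 0.99 ± 0.19, adjusted p = 0.00399). The fractions were separate for both, with a ratio of LP to mature means of 1.85 for G6pdx and 1.99 for Pgd.

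Tkt (Entrez Gene 21881, chromosome 14), the transketolase, had 277, 294, 317 and 389 CPM in LP and 131, 113, 123 and 137 CPM in mature libraries (log2 fold change 1.34 ± 0.16, adjusted p = 0.000473). Taldo1 (Entrez Gene 21351, chromosome 7), the transaldolase, had 613, 673, 703 and 1098 CPM in LP and 174, 224, 257 and 192 CPM in mature libraries (log2 fold change 1.87 ± 0.22, adjusted p = 0.00049). LP replicate 4 was the highest library for both. Taldo1 was the most abundant of the 4 genes, at 628 CPM per kb in LP and 172 in mature cells. Summed over the 4 genes, LP libraries held 1118 to 1739.7 CPM and mature libraries 404 to 476 CPM.

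**Figure D2:**
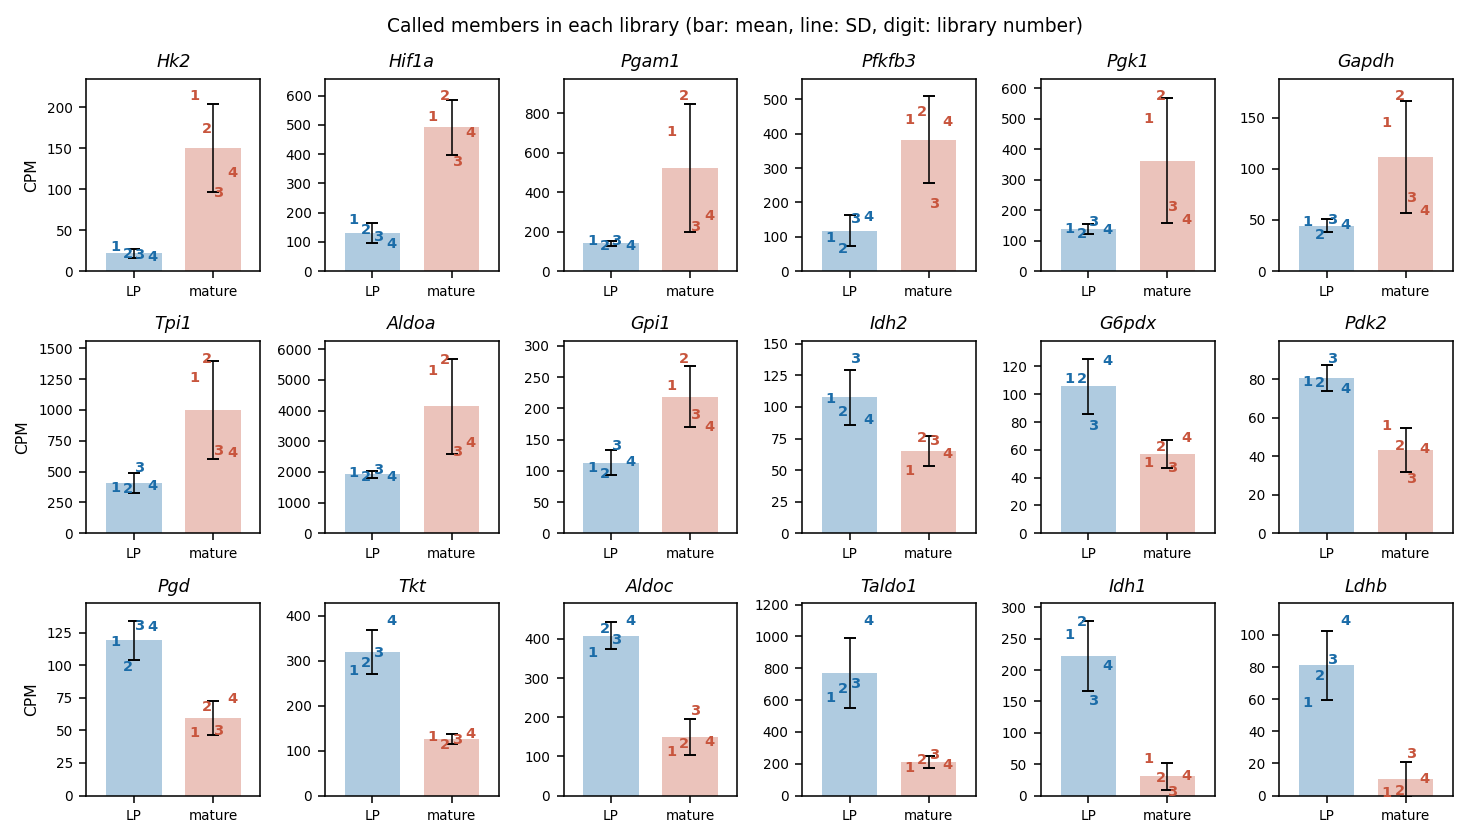
Each panel shows 1 of the 18 called members, with CPM on the vertical axis, a bar for the mean of 4 libraries, a line for the SD, and the library number printed at its value. Mature replicates 1 and 2 top the mature fraction in the 9 panels from Hk2 to Gpi1, an order that the panels of the pentose phosphate genes do not show.

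In the TCA cycle group the called genes were Idh1 and Idh2. Idh1 (Entrez Gene 15926, chromosome 1), the cytosolic NADP-dependent isocitrate dehydrogenase, had 257, 276, 151 and 206 CPM in LP and 58.6, 27.6, 5.20 and 31.2 CPM in mature libraries. LP libraries were all higher, and the log2 fold change was 2.86 ± 0.54 (adjusted p = 0.00378). Its mitochondrial, NADP-dependent counterpart Idh2 (Entrez Gene 269951, chromosome 7) had 106, 95.7, 138 and 90.0 CPM in LP and 49.2, 75.1, 73.3 and 63.1 CPM in mature libraries (log2 fold change 0.72 ± 0.20, adjusted p = 0.021). Without LP replicate 3 the call of Idh2 was lost, at a log2 fold change of 0.58 and an adjusted p of 0.0577. Idh3a, a subunit of the NAD-dependent enzyme of the cycle proper, had 83.3, 74.3, 95.5 and 97.8 CPM in LP and 84.0, 72.8, 70.2 and 70.4 CPM in mature libraries (adjusted p = 0.286).

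Mdh2, the mitochondrial malate dehydrogenase, had the highest level per kilobase of this group, 263 CPM per kb in both fractions. It had 369, 400.1, 355 and 411 CPM in LP and 395, 359.6, 384 and 392 CPM in mature libraries, and the estimate was 0.00 ± 0.14 on the log2 scale (adjusted p = 0.988). The cytosolic Mdh1 ranged from 239.6 to 393 CPM in LP and from 195 to 273 CPM in mature libraries (log2 fold change 0.50 ± 0.19, adjusted p = 0.074), and it was called without LP replicate 3 (0.64, adjusted p = 0.0267). Citrate synthase, Cs, was not called (log2 fold change 0.43 ± 0.15, adjusted p = 0.0659), although its LP libraries, from 106 to 143 CPM, were all above its mature libraries, from 82.7 to 103 CPM. The oxoglutarate dehydrogenase Ogdh, the succinate-CoA ligase subunit Sucla2 and the fumarase Fh1 overlapped between the fractions, with log2 fold changes of 0.11, 0.21 and 0.25. Summed over the 9 genes, LP libraries held 1434 to 1693 CPM and mature libraries 1125 to 1242 CPM.

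Where a reaction has more than one isozyme, the composition of the pair was compared as the share of CPM per kb held by one gene in each library, as a description without a test. Hk2 made up 16.1%, 12.8%, 7.80% and 8.43% of the hexokinase pair in LP and 49.3%, 41.6%, 37.9% and 49.2% in mature libraries. Aldoc made up 9.07% to 11.7% of the aldolase pair in LP and 1.13% to 4.25% in mature libraries. Ldhb made up 8.41% to 16.3% of the lactate dehydrogenase pair in LP and 0.133% to 4.13% in mature libraries. These 3 shares did not overlap between the fractions. The share of Idh1 in the Idh1 and Idh2 pair did, at 64.7%, 68.6%, 45.4% and 63.4% in LP and 47.5%, 21.8%, 5.1% and 27.2% in mature libraries. Aldoa and Ldha were the dominant genes of their pairs in every library of both fractions. Hk1 was dominant in LP, but it held only 50.7% and 50.8% of its pair in mature replicates 1 and 4. In CPM, without division by transcript length, Hk2 was above Hk1 in mature replicates 1, 2 and 4.

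**Figure D3:**
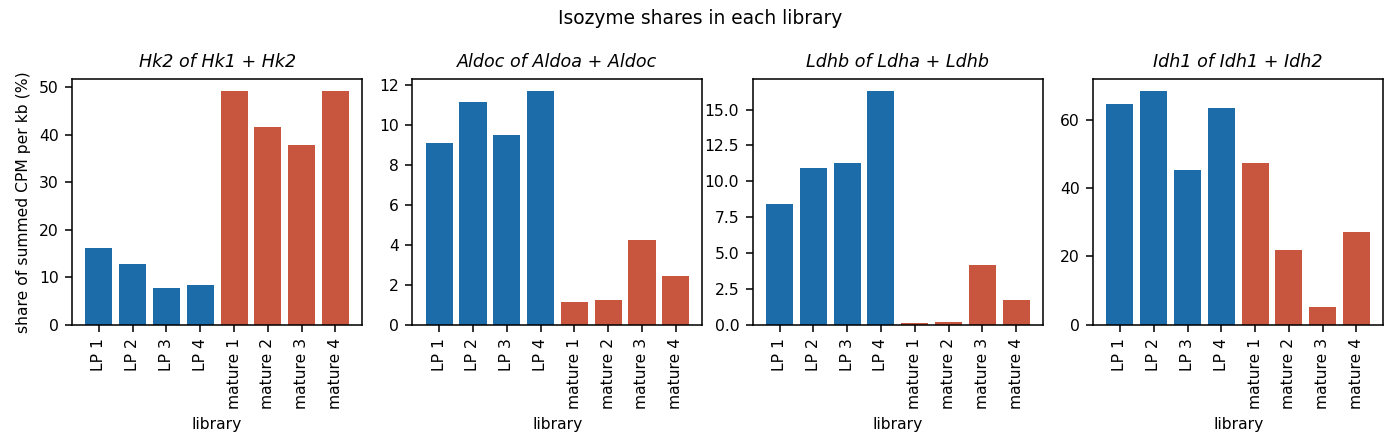
Each panel gives the share, in percent of summed CPM per kb, of the first-named isozyme in its pair for the 8 libraries. The share of Hk2 is higher in mature cells (37.9% to 49.3%) than in LP, the shares of Aldoc and Ldhb are higher in LP than in mature cells, and the share of Idh1 overlaps between mature replicate 1 and LP replicate 3.

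Hif1a (Entrez Gene 15251, chromosome 12) had 174, 139, 116 and 93.2 CPM in LP and 526, 598, 375 and 471 CPM in mature libraries. The fractions were far apart, with the lowest mature library above the highest LP library, and the log2 fold change was -1.91 ± 0.23 (adjusted p = 0.000479). HIF-1α is controlled largely through the stability of the protein, which was not measured here. The genes of its partners and targets were counted too, but their transcripts do not measure the activity of the protein. Of 7 tested genes for partners and oxygen sensors, 2 were called higher in mature cells and 1 higher in LP. Over all tested genes these shares were 13.8% and 10.9%. Vhl, the ubiquitin ligase subunit that removes HIF-1α, rose to 78.5 to 96.0 CPM in mature libraries from 29.9 to 41.1 CPM in LP (log2 fold change -1.20, adjusted p = 0.000974). The prolyl hydroxylase Egln1 had a log2 fold change of -1.99 (adjusted p = 0.0224), and its call was lost without LP replicate 2, 3 or 4 or without mature replicate 1 or 2, where its log2 fold change ranged from -1.97 to -1.40. Egln2, another prolyl hydroxylase gene, was higher in LP (0.85, adjusted p = 0.0479), a call that was lost under 14 of the 23 alternatives. The dimer partner Arnt and the related Epas1 were not called.

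Of 15 known HIF targets outside glycolysis, all of them tested, 11 were called higher in mature cells and 2 higher in LP, with a median log2 fold change of -1.71. Among all tested genes 13.8% were called higher in mature cells and 10.9% higher in LP. The list of targets was chosen with earlier results of these data known. Ero1a, which drives disulfide bond formation, had 245, 137, 185 and 127 CPM in LP and 2956, 3567, 675 and 573 CPM in mature libraries (log2 fold change -3.48, adjusted p = 0.00246). Bnip3, a mitophagy receptor, had 181, 137, 150.1 and 129 CPM in LP and 1472, 1791, 476 and 519 CPM in mature libraries (log2 fold change -2.83, adjusted p = 0.00127). In both genes each mature library exceeded all LP libraries, and mature replicates 1 and 2 were far above replicates 3 and 4. The other genes called higher in mature cells were Adm (log2 fold change -3.71), Ddit4 (-2.55), Vegfa (-2.52), P4ha2 (-2.26), P4ha1 (-2.24), Higd1a (-1.71), Mxi1 (-1.44), Bnip3l (-1.39) and Kdm3a (-1.27). The carbonic anhydrase genes Car9 (1.88) and Car12 (3.85) were higher in LP, and Ndrg1 and Ankrd37 were not called. Several of these calls were lost when 1 library was left out, in fits that can also detect less. The call of P4ha2 was lost without LP replicate 1, 2 or 4, although its log2 fold change stayed between -2.17 and -2.15. The call of Car9 was lost without LP replicate 3 (adjusted p = 0.0505) and that of Car12 without LP replicate 2 (3.07, adjusted p = 0.0678). Car12 was 4.53 without mature replicate 4, and Car9 was 2.51 without mature replicate 3.

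The mature libraries were not alike in these genes. For all 9 members called higher in mature cells, replicates 1 and 2 were both above replicates 3 and 4, and the same order held for 9 of the 11 HIF targets called higher in mature cells. Among all 1767 genes called higher in mature cells, 604 (34.2%) had this order. Summed HIF targets outside glycolysis reached 7767 and 9084 CPM in mature replicates 1 and 2, 2508 and 2014 CPM in mature replicates 3 and 4, and 920.2 to 1290.3 CPM in LP. The labels name no batch that joins replicates 1 and 2. The leading identifiers of these replicates are consecutive numbers and those of replicates 3 and 4 are not, without a statement of what they mark. Other lists were also highest in these libraries: the fibroblast markers as given above, and the general luminal markers (Epcam, Krt8, Krt18, Krt19 and Cldn3), which summed to 34169 and 44461 CPM in mature replicates 1 and 2, 24358 and 24243 CPM in mature replicates 3 and 4, and 12267 to 13833 CPM in LP. The luminal progenitor markers had the opposite order, with 244, 355, 966 and 715 CPM in mature replicates 1 to 4. The mature luminal markers had neither order, with 5418, 5065, 4325 and 6059 CPM. A list of 10 genes that respond to tissue dissociation also moved with the fraction, with 6 of 9 tested genes called higher in mature cells and 1 (Ier2) higher in LP. It summed to 1393 to 1899.5 CPM in LP and to 3849.9, 3272, 14952 and 3504 CPM in mature replicates 1 to 4, with replicate 3 the highest. Most of that sum came from the heat shock genes Hspa1a (8253 CPM) and Hspa1b (3779 CPM). Fos (479 CPM), Egr1 (210 CPM), Ier2 (192 CPM) and the scarce Fosb (3.32 CPM) also had their highest mature level in replicate 3. Jun, Junb, Atf3 and Dusp1 did not. Jun had 1326, 1077, 1143 and 502 CPM and Dusp1 265, 357, 201 and 124 CPM in mature replicates 1 to 4, and both were lowest in replicate 4. The part of dissociation or of cell composition in these differences was not tested.

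Without mature replicates 1 and 2, a setting added after the data had been seen, 6 members were called higher in mature cells and 9 higher in LP, and 2179 genes in all. Gpi1 (log2 fold change -0.65, adjusted p = 0.0515), Gapdh (-0.53, adjusted p = 0.133) and Pgk1 (-0.42, adjusted p = 0.152) lost their calls. Hk2 (-2.29), Hif1a (-1.68) and Pfkfb3 (-1.40, adjusted p = 0.0431) were still called, as were Pgam1 (-0.82, adjusted p = 0.0144), Tpi1 (-0.67, adjusted p = 0.0499) and Aldoa (-0.53, adjusted p = 0.0445), whose estimates were smaller than with all libraries (-1.90, -1.28 and -1.10). In this setting Eno1 was called higher in LP (0.72, adjusted p = 0.0208), Idh2 was no longer called (adjusted p = 0.0772), and Pkm and Ldha were at 0.00 and 0.07. Without mature replicates 3 and 4, 12 members were called higher in mature cells, Pkm (-1.06), Ldha (-1.12) and Pfkp (-0.82) being the additional ones, and 10 higher in LP, with Cs (0.58) the additional one.

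**Figure D4:**
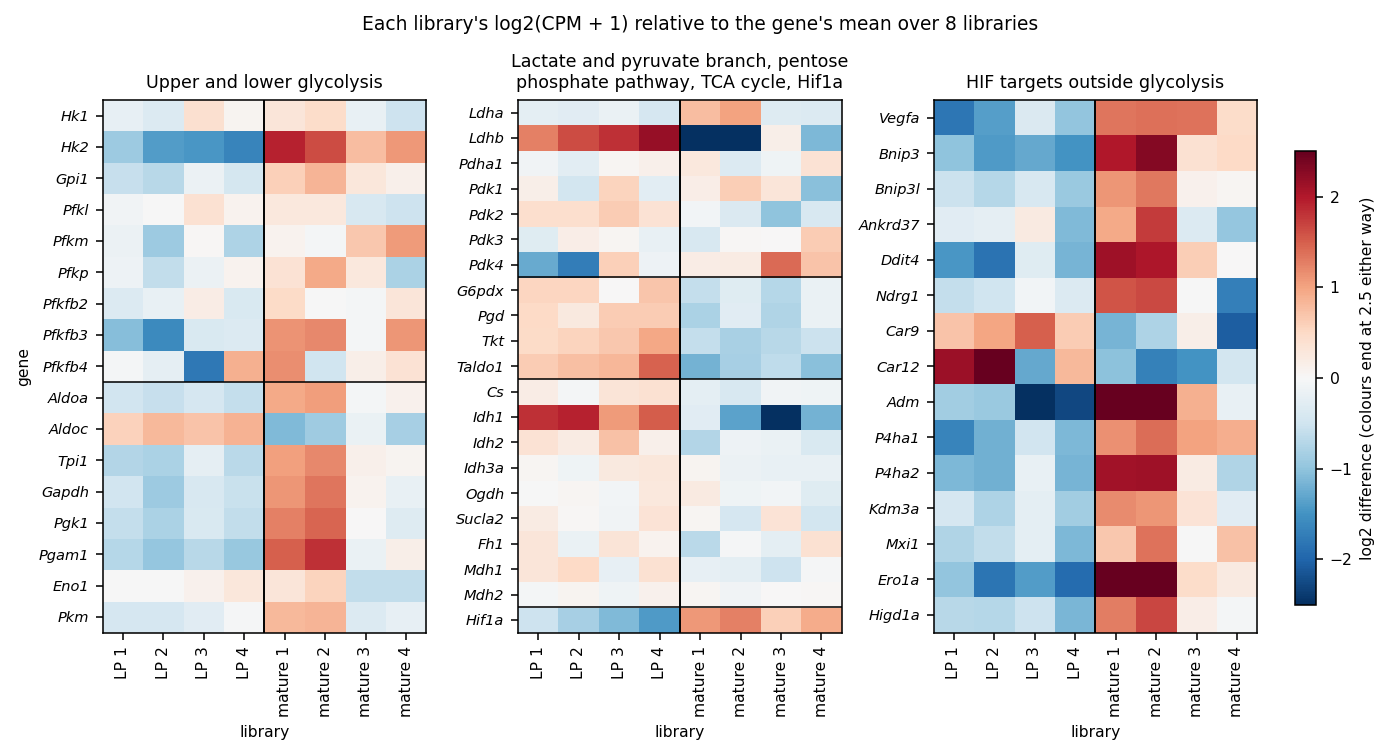
Colours show log2(CPM + 1) of each library relative to the mean of the gene over the 8 libraries, for the 38 tested members and the 15 HIF targets outside glycolysis, with rows as genes and columns as libraries. Mature replicates 1 and 2 are the darkest red columns for most glycolysis genes and HIF targets, while the pentose phosphate genes separate LP from all 4 mature libraries.

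Genes of the same pathways that are not among the 39 were counted from lists chosen with earlier results of these data known. Their counts stand against 10.9% of all tested genes called higher in LP and 13.8% called higher in mature cells. Of 9 tested genes of glycolysis and gluconeogenesis, 3 were called higher in mature cells and 1 higher in LP. The phosphoglucomutases Pgm1 (log2 fold change -1.29, adjusted p = 0.00487) and Pgm2 (-1.26, adjusted p = 0.00551), which link glucose 6-phosphate to glycogen and to nucleotide sugars, were higher in mature cells, as was the mitochondrial phosphoenolpyruvate carboxykinase Pck2 (-0.92, adjusted p = 0.02). The galactose mutarotase Galm was higher in LP (1.16, adjusted p = 0.00276). Of 8 tested further genes of the pentose phosphate pathway and ribose phosphate metabolism, among them Pgls, Rpe, Rpia and Prps1, 0 were called in either direction by edgeR's quasi-likelihood test, with a median log2 fold change of -0.01. At an unadjusted p under 0.05 the count was also 0, and DESeq2 and limma-voom called 0 of the 8.

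Of 9 further genes of pyruvate import and oxidation, 6 had a positive and 3 a negative log2 fold change, with a median of 0.29. The 3 called genes were higher in LP, namely the dehydrogenase components Dlat (log2 fold change 0.71) and Pdhx (1.31) and the mitochondrial pyruvate carrier Mpc1 (0.73). Of 15 further genes of the TCA cycle, malic enzymes and citrate export, 4 were called with LP ahead and 2 with mature cells ahead. The cytosolic aconitase Aco1 (1.67, adjusted p = 0.00059), the NADPH-yielding malic enzyme Me1 (0.99, adjusted p = 0.00283), the succinate-CoA ligase subunit Suclg1 (0.74, adjusted p = 0.0302) and the succinate dehydrogenase subunit Sdhb (0.57, adjusted p = 0.0287) were higher in LP. Idh3b, a subunit partner of Idh3a, was higher in mature cells, at 134 to 155 CPM against 69.4 to 75.2 CPM in LP (-0.99, adjusted p = 0.000742), and so was the scarce Me3 (-2.61, adjusted p = 0.027). Leaving out 1 library could end the calls of Pck2, Dlat, Pdhx, Mpc1, Suclg1, Sdhb and Me3 (any of 2 to 5 libraries, depending on the gene), and Me3 was at -1.85 without mature replicate 2.

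Genes for glucose uptake differed in both directions, and 4 of the 6 tested transporter genes were called. Slc2a1, which encodes the glucose transporter GLUT1, had 203, 145, 248 and 224 CPM in LP and 1901, 2223, 536 and 466 CPM in mature libraries (log2 fold change -2.64, adjusted p = 0.00375). Slc5a1, the sodium-coupled glucose transporter SGLT1, had 74.2, 107, 97.4 and 120.1 CPM in LP and 2.67, 5.52, 8.81 and 13.3 CPM in mature libraries (log2 fold change 3.71, adjusted p = 0.000392). The fractions did not overlap for either gene, and the order was opposite. Slc2a3, encoding GLUT3, was higher in mature cells (-0.96, adjusted p = 0.0166), a call lost without mature replicate 1 (adjusted p = 0.0513). The lactate exporter gene Slc16a3 was also higher in mature cells (-3.25, adjusted p = 0.0264), at 38.0, 32.0, 31.9 and 4.67 CPM against at most 6.64 CPM in LP, so that mature replicate 4 overlapped with LP, and its call was lost without LP replicate 1, 2 or 4 or mature replicate 1 or 2. Without LP replicate 3 the log2 fold change of Slc16a3 was -4.09.

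**Figure D5:**
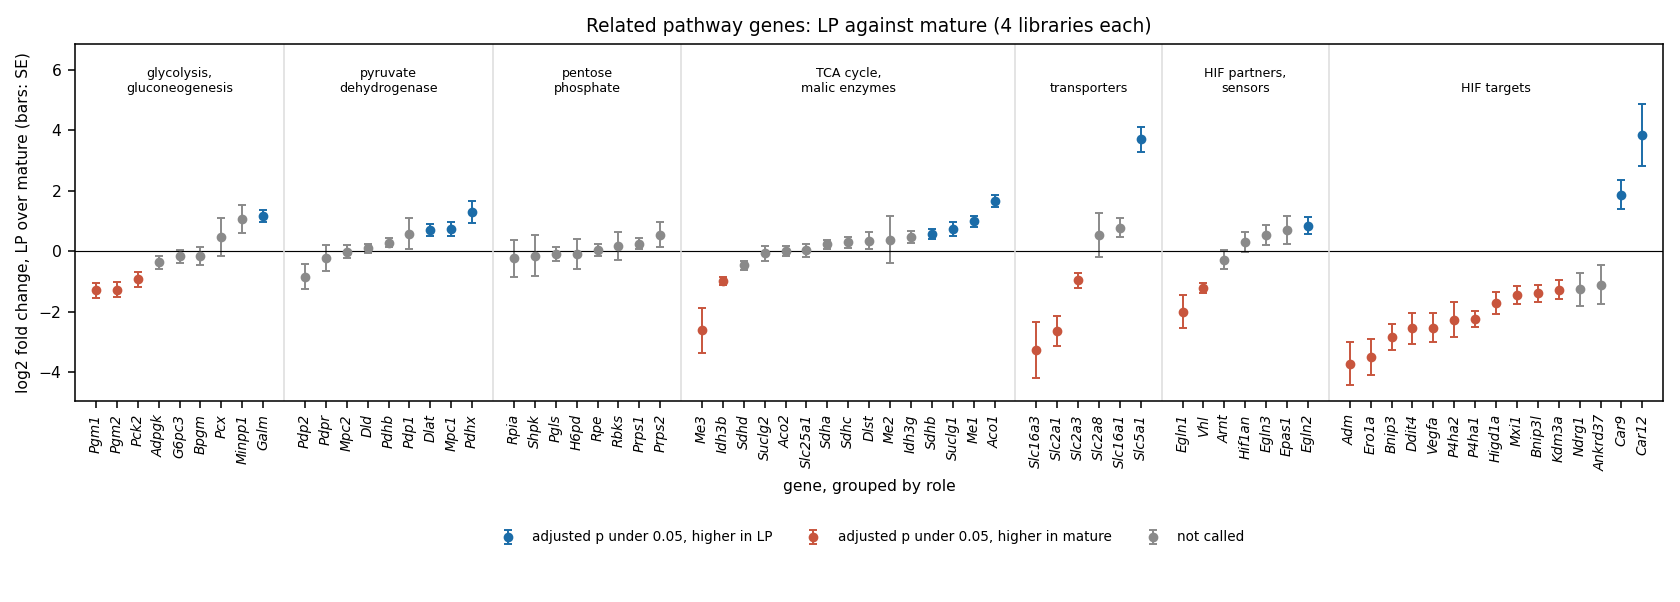
The vertical axis gives the log2 fold change of LP over mature cells, with bars of 1 standard error, for 69 tested genes of the same pathways that are not among the 39 members, grouped by role on the horizontal axis. Most HIF targets lie below zero, from Adm at -3.71, while Slc5a1 (3.71) and Car12 (3.85) are the highest points.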

How the data were processed

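RNA from 8 sorted samples, 4 of luminal progenitors and 4 of mature luminal cells, was sequenced as 51-base single-end reads after amplification of the cDNA. Per the methods, the authors trimmed reads with cutadapt and aligned them to mm10 with Bowtie2, for which the submitters' processing notes list versions 4.2 and 2.3.5.1 (the methods name an earlier version of Bowtie2). Bowtie2 is an aligner that does not split reads across introns, so that reads over exon junctions could be lost. The deposited values are raw read counts per gene, with Entrez Gene IDs. The program and annotation behind the counting, strand use and the treatment of reads that match several places are not given in the sources used here. The labels list 4 samples per fraction, where the methods speak of 3 biological replicates; all 8 were used.

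Symbols were assigned from RefSeq (24570 of 24594 IDs matched). Counts were analysed in R 4.3.3 with edgeR 4.0.16: genes were filtered by filterByExpr, libraries were scaled by TMM, and fractions were compared by the quasi-likelihood F-test, with p-values adjusted by Benjamini-Hochberg over all 12816 genes tested. Standard errors were derived from the log2 fold change and its F statistic. Levels per kilobase used the length of the principal transcript. The step was tested on simulated counts. DESeq2 1.42.0 and limma 3.58.1 served as alternatives. Settings that leave out a pair of mature libraries were added after the data had been seen. The members and gene lists were chosen with earlier results of these data known. Values in every library are given for members that were called, for the most abundant member of each role group per kilobase and for sister isozymes of called members; the others are given by range, and other pathway genes by name where called.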

Additional observations from a re-analysis of the deposited data

Results flagged for a closer look

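Among 71 member and pathway genes, 142 groups of 4 libraries were examined for a library that stands apart from the other three by Dixon's ratio, and 3 groups had one. At the 95% limit chance alone would give about 7.1 of 142 groups (1 in 20). Pfkfb3, which makes the activator of phosphofructokinase, had its lowest mature level in replicate 3, at 195 CPM. Vegfa, a secreted growth factor and HIF target, had its lowest mature level in replicate 4, at 10.7 CPM. P4ha2, a collagen prolyl hydroxylase subunit and HIF target, had its highest LP level in replicate 3, at 65.7 CPM.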

How the results depend on the processing

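Under 23 alternatives (scaling, filters, test, replicate block, libraries left out), 9 of the 18 called members kept their call in all (Hk2, Pfkfb3, Aldoc, Pdk2, Pgd, Tkt, Taldo1, Idh1 and Hif1a), 9 lost it in at least 1 and 0 changed direction. Leaving out 1 library or 1 library of each fraction gave 1615 to 3414 called genes, 7 to 10 members with LP ahead and 3 to 11 with mature cells ahead. Without replicate 1 of both fractions 1808 genes and 4 members higher in mature cells were called, and without replicate 2 of both 1615 genes and 3 members, namely Hk2, Pfkfb3 and Hif1a; the 2 libraries fewer in such fits also reduce what they can detect. Scaling by library totals alone moved the median log2 fold change of all genes by 0.19. Blocking on the replicate number gave 3027 called genes, 2757 of them shared with the 3161 called without the block, and 10 members in each direction. It ended the calls of Mpc1 (adjusted p = 0.0586), Car12 (0.0537) and P4ha2 (0.0618), gave calls to Pdk4 (-1.27, adjusted p = 0.00868) and Mdh1 (0.49, adjusted p = 0.0492), and changed no other call of a member or called pathway gene. Same-numbered libraries deviated together with correlations of 0.0618 to 0.148 (other numbers -0.156 to 0.0779), mature replicate 2 correlated best with LP replicate 1, and each LP library shares a leading identifier in its label with the mature library of the same number, without a statement of what it marks. Of the 20 members not called, 7 passed in some alternative and 10 changed sign. With library totals alone these were Hk1 (0.15), Pdha1 (0.077), Pdk1 (0.14) and Pdk3 (0.0079). Without a filter Hk1 was 0.0089, and with limma-voom Pdk1 was 0.018. Without mature replicates 1 and 2 they were Hk1 (0.36), Pkm (0.0017), Ldha (0.070), Pdk1 (0.28) and Mdh2 (-0.0033), and without mature replicates 3 and 4 Pfkl (-0.11), Eno1 (-0.29), Pdha1 (0.019) and Pdk3 (0.18). With libraries left out singly or by number, log2 fold changes ranged from -0.30 to 0.22 for Hk1, -0.043 to 0.35 for Pfkl, -0.12 to 0.39 for Eno1, -0.20 to 0.035 for Pdha1, -0.30 to 0.29 for Pdk1, -0.30 to 0.11 for Pdk3, -0.028 to 0.25 for Ogdh and -0.027 to 0.045 for Mdh2. The cause of these changes was not tested. Of 33 called pathway genes that are not members, 16 lost their call in some alternative and 0 changed direction. Depth limits the scarcest members: Eno2 and Pfkfb4 rest on at most 57 counts per library. Some called members were also scarce in mature libraries. Ldhb had 12 and 10 counts in mature replicates 1 and 2, and Idh1 had 36 in mature replicate 3.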
